A study of Mus musculus with 6 samples.

Results

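The tricarboxylic acid (TCA) cycle and pyruvate entry genes were measured in gonadal white adipose tissue (GWAT) of *ob/ob/Fsp27-/-* mice and set against those of *ob/ob* mice. The genes were taken from a list of 38 names that covers the enzymes of the cycle, the pyruvate dehydrogenase complex with its kinases and phosphatases, the mitochondrial pyruvate carrier, the enzymes that feed or drain the cycle, and the malate-aspartate shuttle. A probeset that names a single gene was found for 37 of the 38, out of 19937 genes measured in this way, and *Mpc2* was not analysed here. The choice of genes did not use measured values, although the list was drawn up with earlier results of these data known. Measured values did enter the choice of probeset, which was the one with the highest mean over the 6 arrays.

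*ob/ob/Fsp27-/-* mice lack both leptin and Fsp27, a lipid droplet protein of adipocytes encoded by *Cidec*, and *ob/ob* mice lack leptin alone, so leptin deficiency is shared by both genotypes. All mice were chow-fed males aged 4 months. The *Fsp27* deletion affects the whole body and was crossed with leptin deficiency on a C57BL/6J background. RNA of whole GWAT was amplified and hybridized to 3 arrays per genotype, 6 in all, of the GeneChip Mouse Gene 1.0 ST type. The methods describe each array as a pool of RNA from several mice, whereas the sample labels do not mention pooling. An array is therefore the replicate, the spread between single mice is unknown, and fewer cells of a type cannot be told apart from less RNA per cell.

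Pyruvate made by glycolysis enters mitochondria through the pyruvate carrier and is then either oxidized to acetyl-CoA by pyruvate dehydrogenase or carboxylated to oxaloacetate by pyruvate carboxylase. Pyruvate dehydrogenase kinases switch the complex off by phosphorylation and the phosphatases switch it on again. In white adipocytes, citrate leaves the cycle for fatty acid synthesis, and oxaloacetate is turned into phosphoenolpyruvate for glyceroneogenesis, the synthesis of the glycerol backbone of triglyceride. The malate-aspartate shuttle moves reducing equivalents of cytosolic NADH into mitochondria.

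Values are log2 levels from the Robust Multi-array Average (RMA), which compare a gene between arrays and not one gene with another. Calls of higher and lower, always in *ob/ob/Fsp27-/-* relative to *ob/ob* mice, required a limma adjusted p under 0.05 together with a log2 difference of 0.5 or more in either direction. Arrays of the same genotype correlated at 0.988 to 0.994 over all probesets, and arrays of different genotypes at 0.943 to 0.965. *Cidec* read 11.34, 11.51 and 11.53 on the *ob/ob/Fsp27-/-* arrays and 11.49, 11.78 and 11.98 on the *ob/ob* arrays. These values overlap, the place of its probes relative to the deleted part is not given, and *Cidec* therefore does not check the labels, on which every direction rests. Of 15 measured white adipocyte markers, 10 were called higher and 5 were not called, with a median of 0.82 for the log2 fold change, and their summed level on the linear scale was 79437 to 83702 on the *ob/ob/Fsp27-/-* arrays and 44063 to 63449 on the *ob/ob* arrays. All 18 macrophage markers were called lower, with a median of -2.48, and their summed level was 7745 to 8946 on the *ob/ob/Fsp27-/-* arrays and 39722 to 47595 on the *ob/ob* arrays. Stromal progenitor markers were called lower in 4 of 8, skeletal muscle markers higher in 1 of 13 (*Myl1*) and endothelial markers higher in 3 of 6, and the genotypes overlapped in all 7 T-cell and all 6 mesothelial markers. Of 6 B-cell markers, *Cd22* was called lower (-0.56) and the other 5 were not called, with log2 fold changes of 0.31 to 1.29 and a median of 0.60 over all 6. Epididymis and testis markers were called lower in 1 of 9. Brown adipocyte markers were called higher in 6 of 10, led by *Elovl3* (log2 fold change 5.97) and *Cox8b* (3.99), whereas *Ucp1* was not called (0.40, SE 0.33). The part of these cell type differences in the results below was not tested.

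Most TCA cycle and pyruvate entry genes were more highly expressed in *ob/ob/Fsp27-/-* GWAT. Of the 37 genes, 26 were called higher (9.58% of all genes were), 6 were called lower (10.8% of all genes were) and 5 were not called. The genotypes did not overlap in 28 genes with higher values and 6 with lower values on the *ob/ob/Fsp27-/-* arrays, where the shares over all genes were 25.3% and 20.7%. The median log2 fold change of the 37 genes was 0.93, beside 0.06 over all genes. The mean over the 37 genes was 9.99, 9.99 and 10.04 on the *ob/ob/Fsp27-/-* arrays and 9.08, 9.33 and 9.36 on the *ob/ob* arrays, so the arrays of the genotypes were separate by this measure too. With the arrays centred on 12 housekeeping genes, 27 were called higher and 2 lower (over all genes 3200 and 1560, beside 1910 and 2158 with the deposited scaling), and the medians were 1.10 for the 37 genes and 0.23 for all genes. The housekeeping genes were themselves lower, with 1 called lower and 0 higher. Their mean was 10.58 to 10.63 on the *ob/ob/Fsp27-/-* arrays and 10.77 to 10.79 on the *ob/ob* arrays, so this centring raised every log2 fold change.

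**Figure D1:**
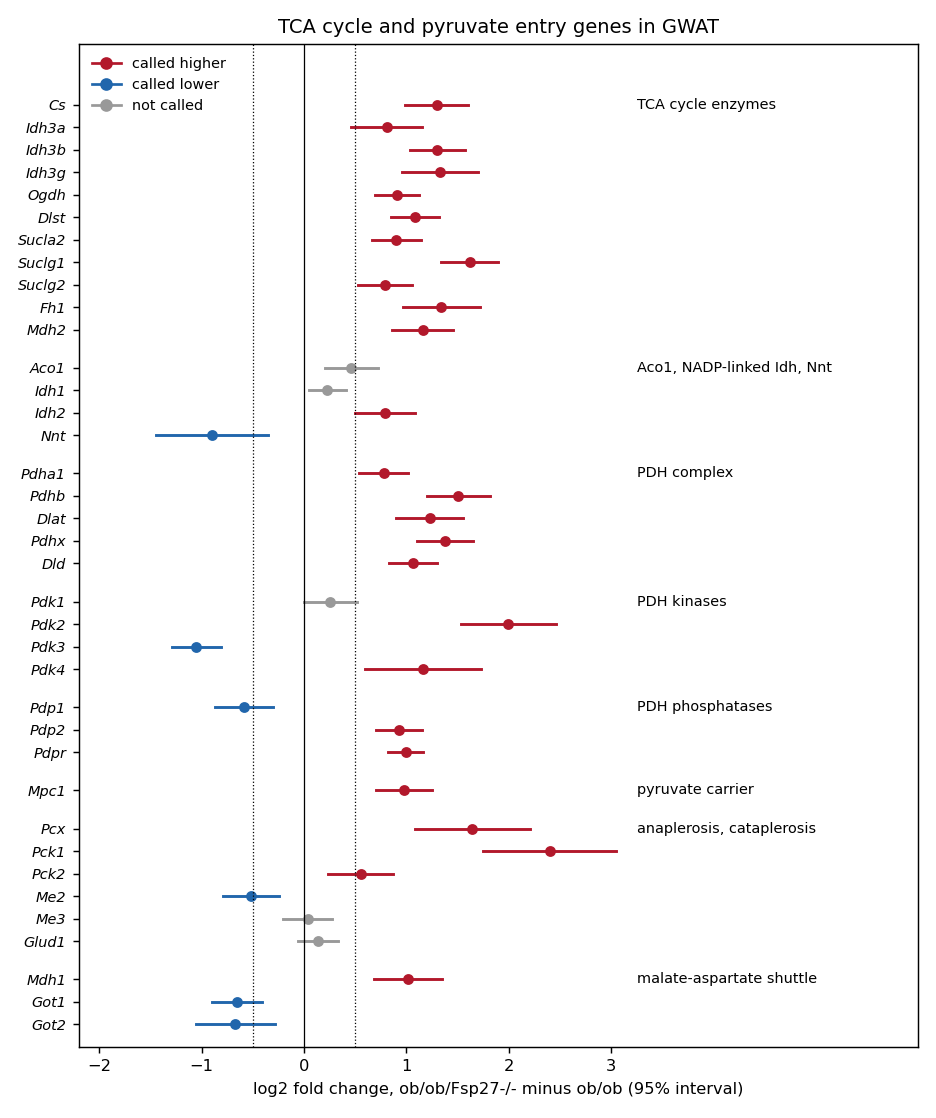
Log2 fold change of each measured gene, *ob/ob/Fsp27-/-* minus *ob/ob* mice, on the horizontal axis with its 95% interval, grouped by role. Red, blue and grey mark genes called higher, called lower and not called, and dotted lines mark the threshold of 0.5 on both sides of 0. All 11 cycle enzymes and all 5 subunits of the pyruvate dehydrogenase complex lie to the right, and 6 genes from the other roles lie to the left.

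Every listed enzyme gene of the mitochondrial cycle was called higher on the probeset read for it, although a further probeset of *Suclg2* was not called. The 11 genes had log2 fold changes between 0.79 and 1.62 and a median of 1.16. *Suclg1*, which encodes the subunit shared by both forms of succinate-CoA ligase, read 10.34, 10.38 and 10.54 on the *ob/ob/Fsp27-/-* arrays, against 8.58, 8.87 and 8.96 on the *ob/ob* arrays. The lowest *ob/ob/Fsp27-/-* array was above the highest *ob/ob* array by more than the spread within either genotype, and the log2 fold change was 1.62 (SE 0.12, limma adjusted p = 0.000159). *Fh1*, which encodes fumarase, read 10.65, 10.72 and 10.80 on the *ob/ob/Fsp27-/-* arrays, against 9.03, 9.45 and 9.66 on the *ob/ob* arrays, and its log2 fold change was 1.34 (SE 0.16, limma adjusted p = 0.00099). *Idh3g*, a regulatory subunit of the NAD-linked isocitrate dehydrogenase, read 11.78, 11.82 and 11.85 on the *ob/ob/Fsp27-/-* arrays, against 10.14, 10.53 and 10.78 on the *ob/ob* arrays, and its log2 fold change was 1.33 (SE 0.16, limma adjusted p = 0.000996). In both of these genes the *ob/ob/Fsp27-/-* arrays lay close together, and *ob/ob* array 1 was the lowest of all 6. The other subunits of the same enzyme were higher as well, *Idh3b* by 1.30 (SE 0.11) and the catalytic subunit *Idh3a* by 0.81 (SE 0.15) on the log2 scale.

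*Cs*, which encodes citrate synthase and so the step that joins acetyl-CoA to oxaloacetate, averaged 11.87 ± 0.061 in *ob/ob/Fsp27-/-* mice and 10.58 ± 0.25 in *ob/ob* mice (SD, n = 3 arrays each), a 2.45-fold difference. The 2-oxoglutarate dehydrogenase complex was represented by its first enzyme *Ogdh* and its second enzyme *Dlst*, with log2 fold changes of 0.91 (SE 0.09) and 1.09 (SE 0.10). *Ogdh* read 11.15 on all 3 *ob/ob/Fsp27-/-* arrays, against 10.09, 10.30 and 10.35 on the *ob/ob* arrays. *Mdh2*, the mitochondrial malate dehydrogenase that regenerates oxaloacetate, was higher by 1.16 (SE 0.13) on the log2 scale. The nucleotide-specific partners of *Suclg1* were higher by 0.90 (SE 0.10) for the ATP-forming *Sucla2* and by 0.79 (SE 0.11) for the GTP-forming *Suclg2*. *Suclg2* was the 1 gene of the 37 with a further probeset, which gave 0.34 (SE 0.11, adjusted p = 0.0483) and so stayed below the fold threshold.

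Promoter windows were read to show which of these genes carry the letters bound by the mitochondrial gene regulators Nrf1 and Gabpa. RefSeq (GRCm38.p6) gave windows of 300 bases, from 250 before to 50 after the start of the gene, for 33 of the 37 genes. In all there were 32851 windows for 27025 genes, and a gene was counted if any of its windows held the letters. On either strand, the Nrf1-type letters CGCANGCG stood in 7 of the 33 (21.2%, and 9.22% of all genes) and the Gabpa-type letters CCGGAAG in 5 of the 33 (15.2%, and 9.93%). The Esrra-type letters TNAAGGTCA were found in 0 of the 33 (1.43% of all genes), and the AGGTCA contained in them in 8 (24.2%, and 18.1%). Nrf1-type letters were found in *Idh3g*, *Ogdh*, *Sucla2*, *Pdha1*, *Pdhb*, *Dld* and *Glud1*, and Gabpa-type letters in *Idh3b*, *Idh3g*, *Dlst*, *Mpc1* and *Glud1*, so that *Glud1* was the only gene of either set that was not called higher. As 26 of the 37 genes (70.3%, counted with the 4 that had no window) were called higher in any case, this does not link the letters to the calls. The 4 genes without a window were *Idh3a*, which was called higher, and *Me2*, *Nnt* and *Pdp1*, which were called lower. The windows below show 3 cycle genes with one or both kinds of letters, and *Glud1* as the gene with both kinds that was not called. Each runs 5′ to 3′ on the gene's own strand, in the order *Dlst* (chr12:85110583-85110882, plus strand), *Sucla2* (chr14:73552536-73552835, plus strand), *Idh3g* (chrX:73786848-73787147, minus strand) and *Glud1* (chr14:34310477-34310776, plus strand), and capitals mark the Nrf1-type and Gabpa-type letters or their reverse complements.
Dlst: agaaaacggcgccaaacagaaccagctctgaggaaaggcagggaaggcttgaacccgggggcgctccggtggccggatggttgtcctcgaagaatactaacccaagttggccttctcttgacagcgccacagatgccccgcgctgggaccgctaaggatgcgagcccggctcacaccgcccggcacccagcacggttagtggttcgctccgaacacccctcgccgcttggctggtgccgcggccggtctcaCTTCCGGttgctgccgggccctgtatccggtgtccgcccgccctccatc
Sucla2: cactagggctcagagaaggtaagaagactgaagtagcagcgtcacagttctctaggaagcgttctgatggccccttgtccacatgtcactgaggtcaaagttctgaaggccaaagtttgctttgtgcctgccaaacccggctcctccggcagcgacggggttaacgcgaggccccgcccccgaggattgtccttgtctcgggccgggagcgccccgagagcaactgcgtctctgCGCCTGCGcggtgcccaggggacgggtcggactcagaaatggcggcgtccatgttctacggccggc
Idh3g: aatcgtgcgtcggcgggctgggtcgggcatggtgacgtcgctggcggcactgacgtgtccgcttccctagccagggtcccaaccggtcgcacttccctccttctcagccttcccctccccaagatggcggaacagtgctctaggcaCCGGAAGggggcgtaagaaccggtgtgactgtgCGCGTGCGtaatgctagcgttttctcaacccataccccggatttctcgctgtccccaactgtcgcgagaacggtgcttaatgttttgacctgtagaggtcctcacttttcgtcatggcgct
Glud1: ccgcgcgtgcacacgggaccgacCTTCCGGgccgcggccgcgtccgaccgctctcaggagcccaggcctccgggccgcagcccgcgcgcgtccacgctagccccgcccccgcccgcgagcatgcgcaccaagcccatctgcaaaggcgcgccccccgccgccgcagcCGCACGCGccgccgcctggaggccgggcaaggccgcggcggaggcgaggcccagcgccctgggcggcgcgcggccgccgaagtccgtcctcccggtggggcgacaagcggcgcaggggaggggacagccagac
A match of letters describes the window and is not a measured binding site.

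The pyruvate dehydrogenase complex was higher in all 5 of its subunits, and their median log2 fold change was 1.23. *Pdhb*, the beta subunit of the decarboxylase, read 9.73, 9.56 and 9.91 on the *ob/ob/Fsp27-/-* arrays, against 8.02, 8.27 and 8.39 on the *ob/ob* arrays, and its log2 fold change was 1.50 (SE 0.13, limma adjusted p = 0.000285). *Pdhx*, which anchors the third enzyme to the core, read 8.70, 8.89 and 9.09 on the *ob/ob/Fsp27-/-* arrays, against 7.40, 7.56 and 7.59 on the *ob/ob* arrays, and its log2 fold change was 1.38 (SE 0.12, limma adjusted p = 0.000256). *Dlat*, the acetyltransferase core, read 10.68, 10.60 and 10.74 on the *ob/ob/Fsp27-/-* arrays, against 9.14, 9.56 and 9.65 on the *ob/ob* arrays, and its log2 fold change was 1.23 (SE 0.14, limma adjusted p = 0.000875). In all 3 genes the genotypes were separate, and *ob/ob* array 1 was the lowest array. *Pdha1*, the alpha subunit that the kinases phosphorylate, was higher by 0.78 (SE 0.10) on the log2 scale, and *Dld*, the dehydrogenase that this complex shares with the 2-oxoglutarate complex, by 1.06 (SE 0.10). *Mpc1*, the measured subunit of the pyruvate carrier, read 11.50, 11.54 and 11.82 on the *ob/ob/Fsp27-/-* arrays, against 10.50, 10.75 and 10.69 on the *ob/ob* arrays. The values of *Mpc1* did not overlap, and its log2 fold change was 0.98 (SE 0.12, limma adjusted p = 0.00109).

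The kinases that inactivate the complex did not move together. *Pdk2*, a kinase expressed in most tissues, read 10.45, 10.60 and 10.85 on the *ob/ob/Fsp27-/-* arrays, against 8.21, 8.89 and 8.82 on the *ob/ob* arrays, with a log2 fold change of 2.00 (SE 0.20, limma adjusted p = 0.000468), or 3.99-fold. *Pdk4*, the kinase known for its rise in fasting, read 10.32, 10.61 and 10.93 on the *ob/ob/Fsp27-/-* arrays, against 8.96, 9.80 and 9.60 on the *ob/ob* arrays, with a log2 fold change of 1.16 (SE 0.24, limma adjusted p = 0.0103). Both kinases were higher on each *ob/ob/Fsp27-/-* array than on any *ob/ob* array, and *Pdk4* was spread more widely within the genotypes (SD 0.30 in *ob/ob/Fsp27-/-* and 0.44 in *ob/ob* mice, n = 3 each). *Pdk3* read 6.49, 6.22 and 6.48 on the *ob/ob/Fsp27-/-* arrays, against 7.47, 7.50 and 7.37 on the *ob/ob* arrays, and it was lower, with a log2 fold change of -1.05 (SE 0.10, limma adjusted p = 0.000408). Its values within a genotype were close together and did not overlap between genotypes. *Pdk1*, a target of the hypoxia-inducible factor, read 7.96, 8.14 and 8.08 on the *ob/ob/Fsp27-/-* arrays, against 7.63, 7.98 and 7.79 on the *ob/ob* arrays, and it was not called (log2 fold change 0.26, adjusted p = 0.13, 95% interval -0.0019 to 0.51). Here *ob/ob* array 2 lay above *ob/ob/Fsp27-/-* array 1, so the genotypes overlapped.

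The phosphatases differed as well. *Pdpr*, their regulatory subunit, read 9.28, 9.31 and 9.38 on the *ob/ob/Fsp27-/-* arrays, against 8.29, 8.36 and 8.35 on the *ob/ob* arrays, with a log2 fold change of 0.99 (SE 0.07, limma adjusted p = 0.00016). *Pdp2*, a catalytic subunit, read 7.29, 7.29 and 7.54 on the *ob/ob/Fsp27-/-* arrays, against 6.38, 6.46 and 6.51 on the *ob/ob* arrays, with a log2 fold change of 0.93 (SE 0.10, limma adjusted p = 0.000594). For both, all *ob/ob/Fsp27-/-* arrays were above all *ob/ob* arrays with little spread within a genotype. *Pdp1*, the other catalytic subunit, read 8.48, 8.53 and 8.19 on the *ob/ob/Fsp27-/-* arrays, against 9.05, 9.08 and 8.83 on the *ob/ob* arrays, and it was lower, with a log2 fold change of -0.59 (SE 0.12, limma adjusted p = 0.00992). The genotypes did not overlap in *Pdp1*, but the call was lost without *ob/ob/Fsp27-/-* array 3, where the log2 fold change was -0.48.

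**Figure D2:**
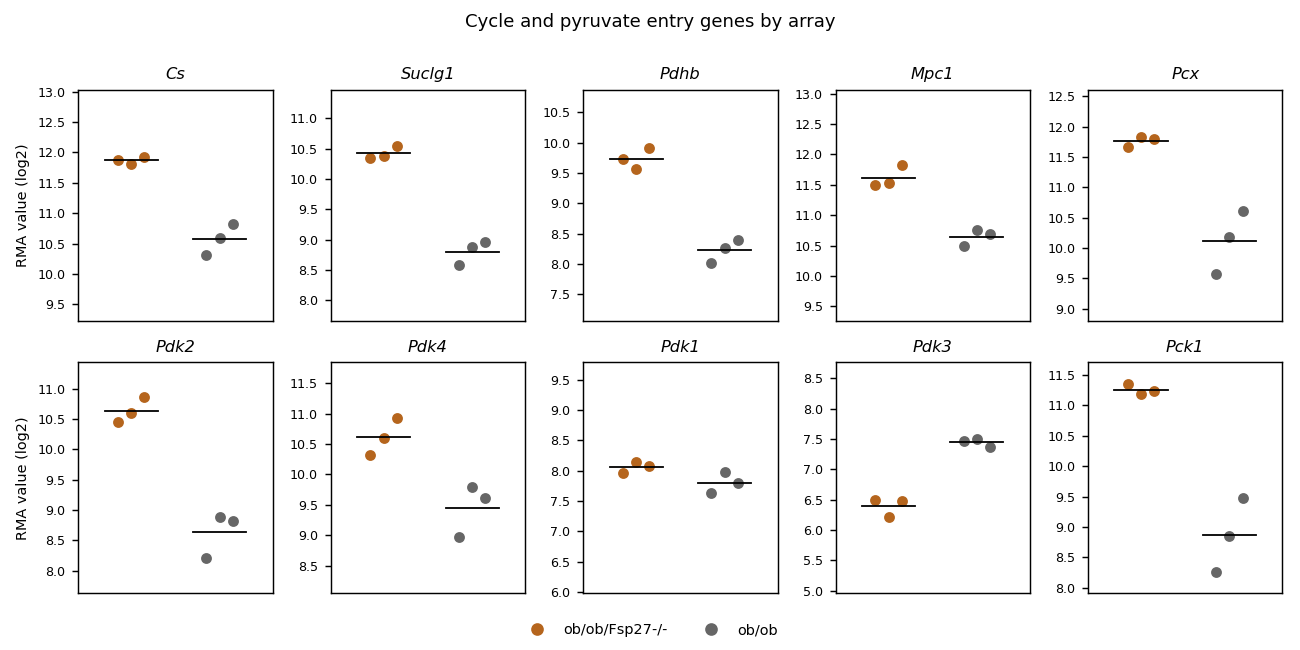
RMA values (log2, vertical axis) of 10 cycle and pyruvate entry genes on each array, with *ob/ob/Fsp27-/-* arrays on the left and *ob/ob* arrays on the right of each panel. Points are arrays 1, 2 and 3 and lines are the means of 3 arrays. *Pdk3* is lower in *ob/ob/Fsp27-/-* mice, *Pdk1* overlaps, and the other 8 genes are higher on every *ob/ob/Fsp27-/-* array.

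Among the genes that feed or drain the cycle, the largest difference of all 37 genes was found. *Pck1*, the cytosolic phosphoenolpyruvate carboxykinase and a key enzyme of glyceroneogenesis in adipocytes, read 11.36, 11.18 and 11.24 on the *ob/ob/Fsp27-/-* arrays, against 8.26, 8.85 and 9.48 on the *ob/ob* arrays. The *ob/ob/Fsp27-/-* arrays lay within a narrow range, the *ob/ob* arrays were spread more widely (SD 0.09 in *ob/ob/Fsp27-/-* and 0.61 in *ob/ob* mice, n = 3 each), and the log2 fold change was 2.40 (SE 0.27, limma adjusted p = 0.000878), or 5.27-fold. *Pcx*, which encodes pyruvate carboxylase, read 11.66, 11.83 and 11.80 on the *ob/ob/Fsp27-/-* arrays, against 9.57, 10.18 and 10.61 on the *ob/ob* arrays, and showed the same contrast in spread (SD 0.09 in *ob/ob/Fsp27-/-* and 0.52 in *ob/ob* mice), with a log2 fold change of 1.64 (SE 0.24, limma adjusted p = 0.00241), or 3.13-fold. *Pck2*, the mitochondrial carboxykinase, read 7.95, 8.28 and 7.81 on the *ob/ob/Fsp27-/-* arrays, against 7.40, 7.39 and 7.59 on the *ob/ob* arrays, with a smaller log2 fold change of 0.55 (SE 0.13, limma adjusted p = 0.0196). The call of *Pck2* was lost without *ob/ob/Fsp27-/-* array 2 (log2 fold change 0.42), without *ob/ob* array 1 (adjusted p = 0.0589) and without *ob/ob* array 2 (adjusted p = 0.0746).

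The mitochondrial malic enzymes, which turn malate into pyruvate, were not higher. *Me2*, the NAD-linked enzyme, read 7.75, 7.43 and 7.40 on the *ob/ob/Fsp27-/-* arrays, against 8.14, 8.08 and 7.93 on the *ob/ob* arrays, and it was lower, with a log2 fold change of -0.52 (SE 0.12, limma adjusted p = 0.0144), just past the fold threshold. It was no longer called without *ob/ob/Fsp27-/-* array 2 or 3 or without *ob/ob* array 1 or 2, with log2 fold changes of -0.51 to -0.46. *Me3*, the NADP-linked enzyme, read 5.79, 5.88 and 5.59 on the *ob/ob/Fsp27-/-* arrays, against 5.70, 5.64 and 5.82 on the *ob/ob* arrays. Its values overlapped, it was the only gene of the 37 with a genotype mean under the median of all values (6.07), and its log2 fold change was 0.03 (adjusted p = 0.837, 95% interval -0.21 to 0.27). *Glud1*, the glutamate dehydrogenase that supplies 2-oxoglutarate, read 10.62, 10.78 and 10.70 on the *ob/ob/Fsp27-/-* arrays, against 10.64, 10.56 and 10.49 on the *ob/ob* arrays. Its values overlapped between genotypes, and its log2 fold change was 0.14 (adjusted p = 0.269, 95% interval -0.058 to 0.33).

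Of the aconitase and NADP-linked enzymes, *Idh2* was higher and *Nnt* was lower. *Idh2*, the mitochondrial NADP-linked isocitrate dehydrogenase, read 10.01, 10.04 and 10.09 on the *ob/ob/Fsp27-/-* arrays, against 9.01, 9.28 and 9.47 on the *ob/ob* arrays, with a log2 fold change of 0.79 (SE 0.12, limma adjusted p = 0.00321). *Idh1*, its cytosolic counterpart, read 11.64, 11.59 and 11.72 on the *ob/ob/Fsp27-/-* arrays, against 11.36, 11.48 and 11.42 on the *ob/ob* arrays. The genotypes did not overlap in either gene, but the difference in *Idh1* was small and was not called (log2 fold change 0.23, adjusted p = 0.0685, 95% interval 0.043 to 0.41). *Aco1*, the cytosolic aconitase that also acts as an iron-responsive RNA-binding protein, read 10.64, 10.40 and 10.57 on the *ob/ob/Fsp27-/-* arrays, against 9.93, 10.07 and 10.22 on the *ob/ob* arrays. The genotypes were separate in *Aco1* too, and with a log2 fold change of 0.46 (adjusted p = 0.0169, 95% interval 0.21 to 0.72) it passed the p threshold and missed the fold threshold. *Nnt*, the transhydrogenase that makes mitochondrial NADPH from NADH, read 7.88, 7.56 and 6.93 on the *ob/ob/Fsp27-/-* arrays, against 8.26, 8.55 and 8.25 on the *ob/ob* arrays, and it was lower, with a log2 fold change of -0.90 (SE 0.23, limma adjusted p = 0.0252). *ob/ob/Fsp27-/-* array 3 was the lowest and the spread among the *ob/ob/Fsp27-/-* arrays was the widest of the 37 genes (SD 0.48, n = 3). The call of *Nnt* was lost without *ob/ob/Fsp27-/-* array 2 (adjusted p = 0.0647) and without *ob/ob* array 2 (adjusted p = 0.0912). C57BL/6J mice are known to carry a deletion of exons in *Nnt*, and the place of the probes relative to it is not given.

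In the malate-aspartate shuttle, the malate dehydrogenase and the aminotransferases differed in opposite directions. *Mdh1*, the cytosolic malate dehydrogenase, read 11.68, 11.68 and 11.76 on the *ob/ob/Fsp27-/-* arrays, against 10.37, 10.84 and 10.87 on the *ob/ob* arrays, with a log2 fold change of 1.02 (SE 0.14, limma adjusted p = 0.002). *Got1*, the cytosolic aspartate aminotransferase, read 8.42, 8.64 and 8.72 on the *ob/ob/Fsp27-/-* arrays, against 9.31, 9.28 and 9.15 on the *ob/ob* arrays, and it was lower, with a log2 fold change of -0.65 (SE 0.10, limma adjusted p = 0.00347). *Got2*, the mitochondrial aspartate aminotransferase, read 9.90, 9.45 and 9.33 on the *ob/ob/Fsp27-/-* arrays, against 10.38, 10.28 and 10.04 on the *ob/ob* arrays, and it was lower, with a log2 fold change of -0.67 (SE 0.16, limma adjusted p = 0.0206). All 3 genes were separate between genotypes, *Mdh1* with the *ob/ob/Fsp27-/-* arrays on top and both aminotransferases with the *ob/ob* arrays on top. The call of *Got2* was lost without *ob/ob/Fsp27-/-* array 2 or 3 or without *ob/ob* array 1 or 2, with adjusted p of 0.0625 to 0.0776, whereas *Got1* was called without any single array. Centring on housekeeping genes, which raised every log2 fold change, left *Got1* at -0.48 and *Got2* at -0.50, under the fold threshold.

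**Figure D3:**
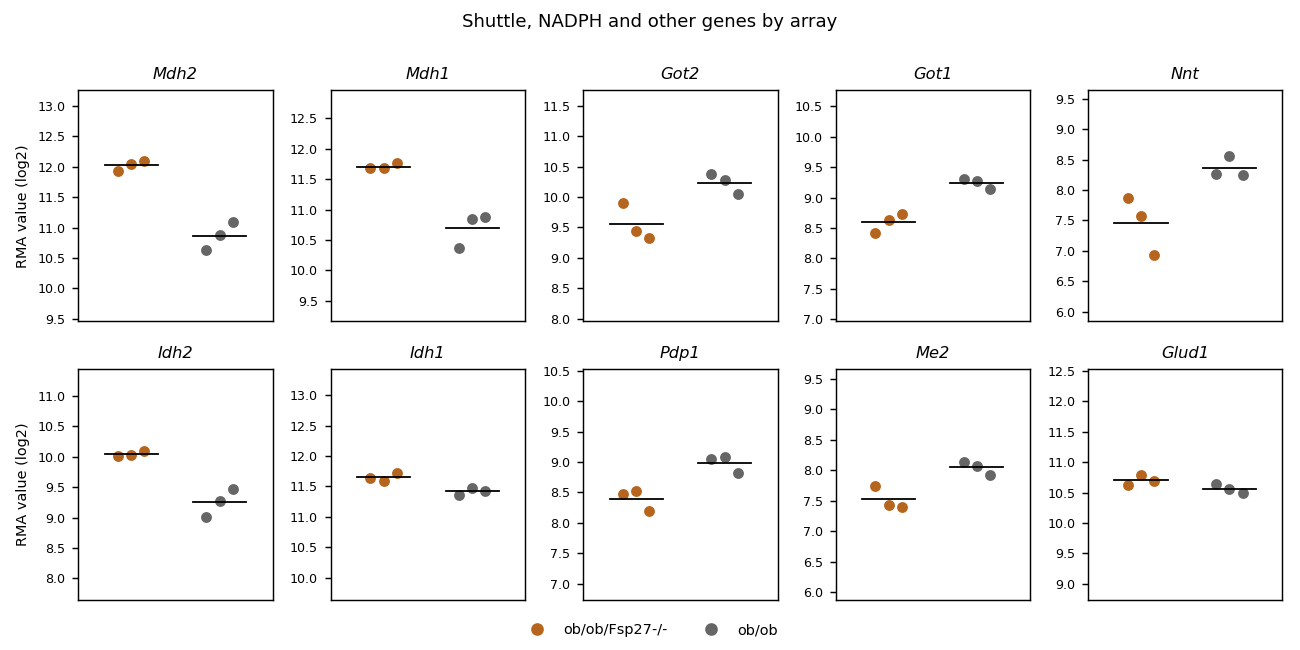
RMA values (log2, vertical axis) of 10 shuttle, NADP-linked and other genes on each array, with *ob/ob/Fsp27-/-* arrays on the left and *ob/ob* arrays on the right of each panel. Points are arrays 1, 2 and 3 and lines are the means of 3 arrays. *Mdh2*, *Mdh1*, *Idh2* and *Idh1* are higher and *Got2*, *Got1*, *Nnt*, *Pdp1* and *Me2* lower on every *ob/ob/Fsp27-/-* array, and *Glud1* overlaps.

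Pairs of genes that catalyse the same reaction, act on the same enzyme or, in the case of *Pcx* and *Pdha1*, use the same substrate were compared within each array, to see whether the genotype difference of one gene departed from that of the other. This difference of log2 values was set between genotypes by an exact two-sided permutation test over the 6 arrays, whose smallest p is 0.1, so that none of the 11 pairs could pass 0.05. The 8 pairs whose genotypes did not overlap reached this p (0.138 after Benjamini-Hochberg adjustment over the pairs). For the kinases, the change in *ob/ob/Fsp27-/-* mice was 1.74 for *Pdk2* minus *Pdk1*, 0.91 for *Pdk4* minus *Pdk1* and -1.31 for *Pdk3* minus *Pdk1* on the log2 scale. It was 1.51 for *Pdp2* minus *Pdp1*, 0.56 for *Idh2* minus *Idh1* and 0.56 for *Me3* minus *Me2*. The change was -1.84 for *Pck2* minus *Pck1*, the mitochondrial beside the cytosolic carboxykinase. For *Pcx* minus *Pdha1* it was 0.87, a difference in RNA that does not measure how pyruvate was used. *Pdha1* had the smallest log2 fold change of the 5 subunits of its complex (0.78). The other subunits (1.06 for *Dld* to 1.50 for *Pdhb*) lay closer to *Pcx* (1.64), so this change depends on the subunit chosen. The genotypes overlapped for *Mdh2* minus *Mdh1* (change 0.14, exact permutation p = 0.2), *Sucla2* minus *Suclg2* (0.11, exact permutation p = 0.3) and *Got2* minus *Got1* (-0.02, exact permutation p = 1). With 3 arrays per genotype these last values do not show that the genes of a pair changed alike.

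**Figure D4:**
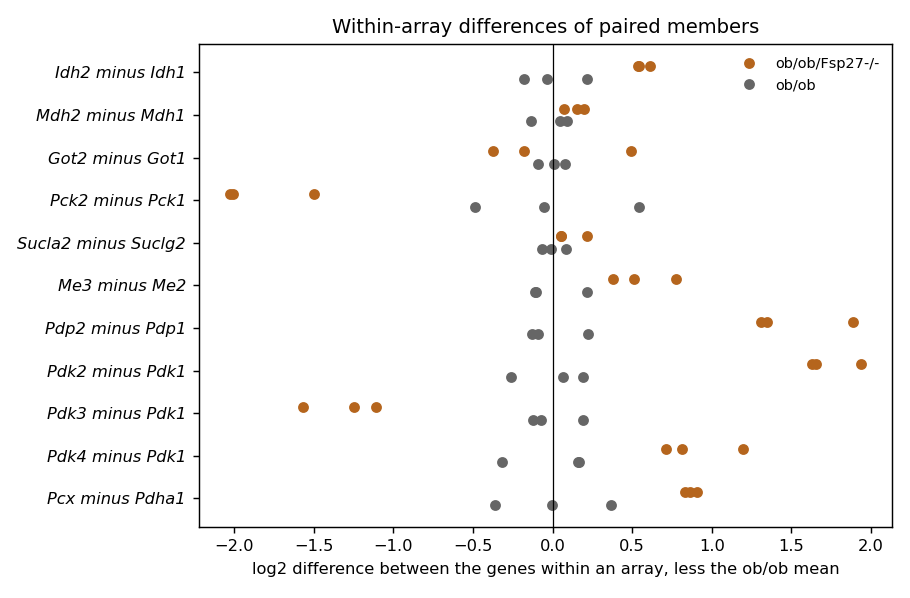
Difference between the log2 values of 2 genes within an array, less the *ob/ob* mean of that difference (horizontal axis), for 11 pairs. Points are single arrays, *ob/ob/Fsp27-/-* above *ob/ob* in each row. In 8 pairs the *ob/ob/Fsp27-/-* points lie apart from the *ob/ob* points, and in the pairs *Mdh2* minus *Mdh1*, *Got2* minus *Got1* and *Sucla2* minus *Suclg2* they overlap.

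Neighbouring genes that act next to these enzymes were read from a list of 40 further genes, of which 36 were measured. Of these 21 were called higher and 1 lower, and the median log2 fold change was 0.81. Succinate dehydrogenase, which links the cycle to the respiratory chain, was higher in all 4 subunits, with log2 fold changes of 1.07 for *Sdha*, 1.37 for *Sdhb*, 1.09 for *Sdhc* and 1.08 for *Sdhd*. The largest called increases were in the alanine aminotransferases *Gpt* (1.80) and *Gpt2* (1.46), the citrate carrier *Slc25a1* (1.76) and the D-lactate dehydrogenase *Ldhd* (1.50). *Slc25a13*, an aspartate-glutamate carrier of the shuttle, was the 1 gene called lower and averaged 5.46 in *ob/ob/Fsp27-/-* and 8.28 in *ob/ob* mice (log2 fold change -2.81, SE 0.27, adjusted p = 0.00041). All its *ob/ob/Fsp27-/-* values (5.91, 5.57 and 4.91) lay under 6.07, the median of all values, so the size of this difference is measured less firmly than its direction. The other shuttle carriers were not called, *Slc25a12* at -0.41 (adjusted p = 0.0909) and *Slc25a11* at 0.45 (adjusted p = 0.00746). The lactate dehydrogenase subunit *Ldha* (0.08) and the pyruvate kinase *Pkm* (0.07) were not called and overlapped. *Ldhb* was not called despite a log2 fold change of 2.18, with an SE of 0.70 (adjusted p = 0.054). *Pkm* and *Ldhb* each had 2 probesets, and only the one with the higher mean was read, so these values describe that probeset.

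Regulators known for control of mitochondrial and pyruvate genes were called higher in 8 of 13 and not called in 5. The largest log2 fold changes were in *Ppara* (2.42, SE 0.27), *Ppargc1a* (1.88, SE 0.13), *Ppargc1b* (1.73, SE 0.11) and the glucose-responsive *Mlxipl* (1.55, SE 0.31). *Ppargc1a* had 2 probesets as well, and the one with the higher mean was read. *Esrra*, a nuclear receptor that works with *Ppargc1a*, was higher by 0.68 (SE 0.11). *Nrf1* (-0.09, adjusted p = 0.469) and *Gabpa* (0.24, adjusted p = 0.0821), whose letters were read in the promoter windows, were not called. *Pparg* (0.33, adjusted p = 0.145) and *Hif1a* (-0.03, adjusted p = 0.878) were not called either.

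Pathways on both sides of the cycle were set beside it as a description. The respiratory chain and ATP synthase had 65 of 68 measured genes called higher and 3 not called, and a median of 1.01, led by *Ndufb8* (1.75) and *Cox4i1* (1.74). Mitochondrial fatty acid oxidation had 18 of 19 called higher with a median of 1.25, led by *Acadvl* (2.18) and *Cpt2* (1.73), and the other gene, *Cpt1a*, was not called (-0.33). Glycolysis, which supplies pyruvate, had 6 of 16 called higher (37.5%, beside 9.58% of all genes) and 2 lower (12.5%, beside 10.8%), and its genes ranged between -2.71 and 2.11 around a median of 0.08. Its called increases were led by *Pfkl* (2.11), *Hk2* (1.72) and *Pfkm* (1.41), and its decreases were *Hk3* (-2.71) and *Eno2* (-1.04). Of the 37 TCA cycle and pyruvate entry genes, 21 had a log2 fold change above 0.82, the median of the white adipocyte markers.

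**Figure D5:**
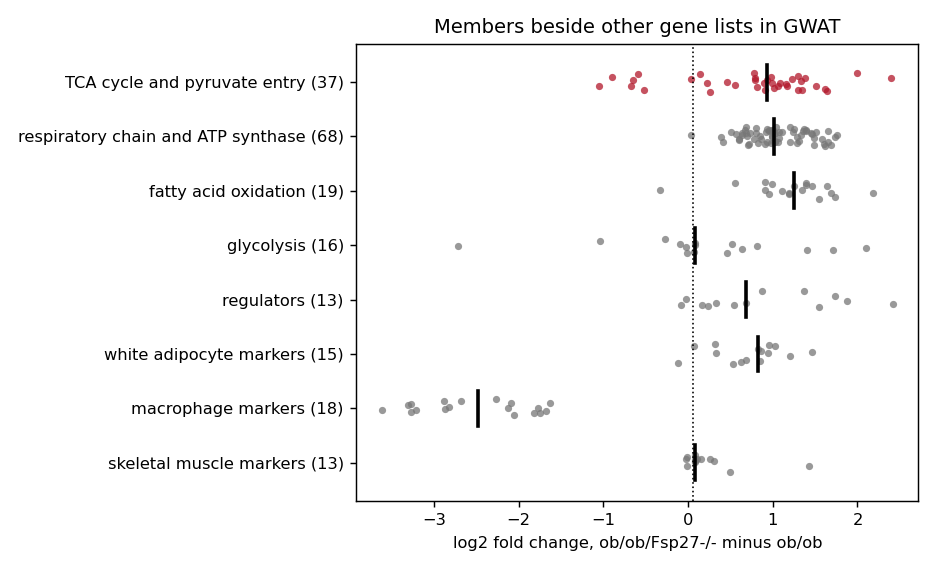
Log2 fold change, *ob/ob/Fsp27-/-* minus *ob/ob* mice, of each measured gene (points, horizontal axis) in 8 gene lists, with the number of genes in parentheses. Thick lines are list medians and the dotted line is the median of all genes (0.06). The medians of the TCA cycle and pyruvate entry genes (0.93) and the respiratory chain (1.01) lie to the right, that of glycolysis (0.08) lies at the dotted line, and the macrophage markers lie to the left.

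The arrays within a genotype were not interchangeable for these genes. *ob/ob* array 1 held the lowest value of its genotype in 28 of the 37 genes, and in 25 of the 26 called higher. The same array had the lowest summed level of white adipocyte markers among the *ob/ob* arrays (44063 on array 1, 56813 on array 2 and 63449 on array 3), the lowest of endothelial markers (2632, 3856 and 3716) and the highest of macrophage markers (47595, 43614 and 39722), and the part of these levels in its low values was not tested. *ob/ob/Fsp27-/-* array 3 held the highest value of its genotype in 21 genes and *ob/ob/Fsp27-/-* array 1 the lowest in 20. Without *ob/ob* array 1, 25 genes were called higher (8.21% of all genes were) and 4 lower (9.97% of all genes were), and the median log2 fold change was 0.85. The 6 genes called lower (*Nnt*, *Pdk3*, *Pdp1*, *Me2*, *Got1* and *Got2*) stood beside 18 of 18 macrophage markers and 4 of 8 stromal progenitor markers that were called lower, and the part of those cells in the lower values was not tested. Of the 6, only *Pdk3* was called lower in every setting tried.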

How the data were processed

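Gene expression was measured in GWAT from 3 *ob/ob/Fsp27-/-* and 3 *ob/ob* arrays. The authors deposited log2 values made with RMA, which adjusts background, normalizes arrays by quantiles and summarizes the probes of each transcript cluster. Their RMA and limma versions were not given in the sources used here. The genes and lists were chosen with earlier results of these data known.

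Of 34760 probesets, 22961 carry a gene symbol and were tested. Symbols were updated by Entrez number for 21553 of the 21640 probesets with 1 symbol, the 1321 with several symbols named no gene, and each gene was read from the probeset whose mean over the 6 arrays was highest. The difference *ob/ob/Fsp27-/-* minus *ob/ob* was fitted without covariates by lmFit and eBayes of limma 3.58.1 (R 4.3.3), with Benjamini-Hochberg adjustment over all tested probesets and the study's thresholds. The study's filter on detection above background was not repeated, and 2 filters on mean level were tried in its place. The procedure was tested on simulated data. Replicates were numbered by sample order, which pairs no arrays, and the labels give no hybridization batch.

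Every gene of the list was named. Values of all arrays were given for the 3 largest log2 fold changes in each role and for genes not called, and up to 4 called genes per direction were named from other lists. Other genes whose array values or fold changes are printed were chosen after their values were seen. An array has no read depth, so its precision is limited by 3 arrays per genotype. Plots were made in matplotlib 3.10.9 under python 3.11.15.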

Additional observations from a re-analysis of the deposited data

How the results depend on the processing

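The counts of 26 genes called higher and 6 called lower were the same with filters at the 30th percentile or the median of all values (where *Me3* dropped out), with all probesets, with arrays centred on their medians, with cyclic loess, a mean-variance trend, robust eBayes, array weights and the mean of a gene's probesets. Over all genes, the shares called in these settings were 9.13% to 16.0% higher and 10.5% to 17.1% lower. Housekeeping centring gave 27 and 2 (*Aco1* gained, *Pdp1*, *Me2*, *Got1* and *Got2* lost), adjusted p alone 27 and 6, a threshold of 1 for the log2 fold change gave 16 and 1, and treat at 0.5 gave 19 and 1. The shares over all genes were 16.1% higher and 7.82% lower with housekeeping centring, and 14.7% and 15.3% with adjusted p alone. They were 3.27% and 4.79% at the threshold of 1, and 2.84% and 4.71% with treat. Leaving out each array in turn gave 25 to 27 higher, 3 to 6 lower and a median log2 fold change of 0.85 to 0.97. The shares over all genes were then 8.13% to 10.6% higher and 9.84% to 11.8% lower. The count of lower genes was 3 without *ob/ob/Fsp27-/-* array 2 or 3 or *ob/ob* array 2. Apart from the log2 fold change of 1 and treat, 25 of the 26 higher calls (not *Pck2*) and 1 of the 6 lower calls (*Pdk3*) held in every setting. In 2 results without a call the direction turned: *Me3* was -0.013 with cyclic loess and -0.029 to 0.12 without single arrays, and *Got2* minus *Got1* ranged between -0.28 and 0.16 without single arrays. The causes were not tested. No paired analysis was possible because the array numbers do not come from the labels. Dim probesets such as that of *Me3*, and differences close to 0.5, are measured least firmly with 3 arrays per genotype.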
